A study of Homo sapiens with 2 samples.

Results

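AP-1 is a family of transcription factor dimers built from Fos and Jun proteins. Here 6 of its genes (FOS, FOSL1, FOSL2, JUN, JUNB and JUND) were described together with 4 genes of the immediate early response (DUSP1, EGR1, IER3 and MYC). They were taken by gene symbol from the 57736 gene entries of the deposited count table, and all 10 were found, each as 1 entry. The cells were A549, a human lung adenocarcinoma line of epithelial origin, labelled wild type and, per the series' design text, named A549 VIM RFP, a line in which vimentin is tagged with a red fluorescent protein. One library came from cells in which TGF-beta had been used to induce an epithelial to mesenchymal transition (EMT), called the TGF-beta library here, and the other from cells given no treatment. The sources used here give neither the dose and duration of TGF-beta nor whether the reporter line is 1 clone.

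Immediate early genes are switched on within minutes of a stimulus, without new protein synthesis, through MAP kinases that activate factors already bound at their promoters. Fos proteins bind DNA only as dimers with Jun proteins, whereas Jun proteins can also pair with each other, and the dimers recognise the TRE and the related CRE sequence. TGF-beta signals through SMAD proteins, which can bind together with AP-1 at target genes, and also through MAP kinases. The mRNAs of many immediate early genes are short-lived, in part through AU-rich elements in their 3' untranslated regions.

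Of the 10 genes 7 matched a RefSeq promoter (GRCh38.p14), and 4 of these are shown for the motif matches they hold. EGR1 is shown for its CArG boxes, which serum response factor binds, DUSP1 for its CRE, FOSL2, the gene that was higher in the TGF-beta library, for its TRE, and FOS, the founding member of the family, for its TATA box. Each sequence runs 5' to 3' on the gene's strand over the 150 bases before the transcript start, and FOSL2 over 20 bases more after it. Capitals mark CArG boxes, the CRE TGACGTCA, the TRE TGACTCA and the TATA box TATAAA, searched on both strands, with no overlap among them in these windows.
EGR1 (chr5:138465329-138465478, plus strand): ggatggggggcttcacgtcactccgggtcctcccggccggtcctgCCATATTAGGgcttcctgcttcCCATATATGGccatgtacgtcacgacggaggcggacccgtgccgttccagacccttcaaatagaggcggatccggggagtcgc
DUSP1 (chr5:172771196-172771345, minus strand): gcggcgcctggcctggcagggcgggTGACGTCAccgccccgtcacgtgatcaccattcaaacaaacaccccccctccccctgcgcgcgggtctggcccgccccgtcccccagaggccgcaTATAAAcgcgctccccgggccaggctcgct
FOSL2 (chr2:28392708-28392877, plus strand): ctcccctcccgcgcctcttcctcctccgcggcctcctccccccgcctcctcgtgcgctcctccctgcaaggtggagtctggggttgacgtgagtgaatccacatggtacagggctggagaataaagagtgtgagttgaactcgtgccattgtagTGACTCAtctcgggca
FOS (chr14:75278678-75278827, plus strand): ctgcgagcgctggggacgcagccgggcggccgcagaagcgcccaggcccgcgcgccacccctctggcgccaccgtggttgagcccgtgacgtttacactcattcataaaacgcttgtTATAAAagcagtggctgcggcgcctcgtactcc

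The pair of CArG boxes in EGR1 lay at -105 to -96 and -83 to -74 from the start. A CArG box was present in 1.29% of the 35093 RefSeq promoters of 300 bases (250 before the start and 50 after), and EGR1 was the only one of the 7 matched genes with one. The CRE was held by DUSP1 (-125 to -118) and JUND (-200 to -193) and by 1.85% of all promoters. The TRE was held by FOSL2, at 5 to 11 bases after the start, and by 4.95% of all promoters. FOS, JUNB and DUSP1 held TATAAA, as did 11.5% of all promoters. The E-box CACGTG, which MYC dimers bind, was in DUSP1 and 7.26% of all promoters. The EGR sites GCGTGGGCG (0.789%) and GCGGGGGCG (5.07%) and the SMAD palindrome GTCTAGAC (0.202%) had no match in the 7. These matches are descriptions of letters in these windows and not of binding.

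With TGF-beta 7 of the 10 genes were lower by 2-fold or more (FOSL1, IER3, DUSP1, MYC, FOS, JUNB and JUND), FOSL2 was the only one at least 2-fold higher, and EGR1 and JUN lay between. FOSL1 had 145 counts without TGF-beta and 1 with it, whereas FOSL2 had 22 and 78. The 10 genes had a median log2 ratio (TGF-beta over untreated) of -2.15, against 0.01 over the 15401 genes with 5 CPM or more (counts scaled to a common library size) in either library. Of those 15401 genes 26.7% were lower by 2-fold or more and 22.0% higher. Higher genes were thus 45.2% of those past 2-fold, a share of 34.1% with DESeq2 size factors. Where 20 CPM in either library was required the count was 7 lower and 1 higher of 9 (JUN did not reach that level), against 36.0% lower and 18.5% higher of 5341. A mean of 20 CPM over both libraries, a filter chosen after seeing the data, gave 7 and 1 against 29.8% and 14.9% of 3898. Each condition has 1 library, so the treatment could not be tested and the differences stand without replication.

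The libraries were shallow and differed well beyond these genes. They held 597133 and 674784 rounded counts (TGF-beta and untreated), and 43.6% and 32.6% of these lay in the 10 genes with most counts. Cytosolic ribosomal protein genes had a median log2 ratio of -3.36, with 53 of 61 at least 2-fold lower and summed counts of 1394 against 20477. GAPDH, a glycolytic enzyme, had 115 counts against 2764. Vimentin (VIM), a mesenchymal gene that EMT is known to raise and that the reporter follows, was 6.40-fold lower, with 56 against 452 counts, which goes against the label of the TGF-beta library. The part of these shifts in the results below was not tested. Ratios are relative to the bulk of the genes, and all direction words hold for scaling on that bulk. Scaled on the ribosomal protein genes instead, every log2 ratio shifts by 3.54. Only FOSL1 and IER3 of the 10 then stay lower, at -3.30 and -1.74, and 6 are higher by 2-fold or more, beside 94.4% of all genes (0.498% lower). Fewer cells with a transcript and less RNA per cell cannot be told apart in such bulk RNA.

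Airway and alveolar epithelial markers gave 3 higher and 2 lower genes of 8 past the filter (summed counts 123 and 310). Of all 15401 genes, 22.0% were higher and 26.7% lower, which is the background of each marker tally in this paragraph at main settings. The 3 higher epithelial genes had 7 counts or fewer in either library. At 20 CPM 2 were lower and 0 higher of 3, beside 36.0% and 18.5% of all genes. KRT7 had 32 against 179 counts, KRT8 16 against 53, and KRT19, named after its value was seen, 45 against 51. E-cadherin (CDH1), also named so, had 4 and 1 counts. The surfactant genes SFTPB, SFTPC and SFTPA1 had 5 counts or fewer in either library. Enzymes known to be high in A549 had summed counts of 2930 and 2966, with 5 of 10 lower and 1 higher and a median log2 ratio of -1.63. ALDH3A1 (1025 and 994) and GCLM (1765 and 1404), named after their values were seen, make up most of these sums. AKR1C2 had 3 against 162 counts, AKR1C1 2 against 36, NQO1 5 against 71 and ALDH1A1 14 against 104. Mesenchymal and fibroblast markers gave 1 lower and 1 higher of 8 (486 against 748), VIM being the lower and the collagen gene COL1A1 (356 against 196) the higher, with LUM at 0 in both. DESeq2 size factors gave 3 lower and 0 higher of these markers (median -0.88), so that COL1A1 was no longer past 2-fold, and total counts and unrounded counts also gave 3 lower. Leukocyte markers summed to 14 and 39 counts, with CD79A and LYZ at 0 in both, and endothelial markers to 43 and 42. The part of these markers in the differences of the 10 genes was not tested.

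**Figure D1:**
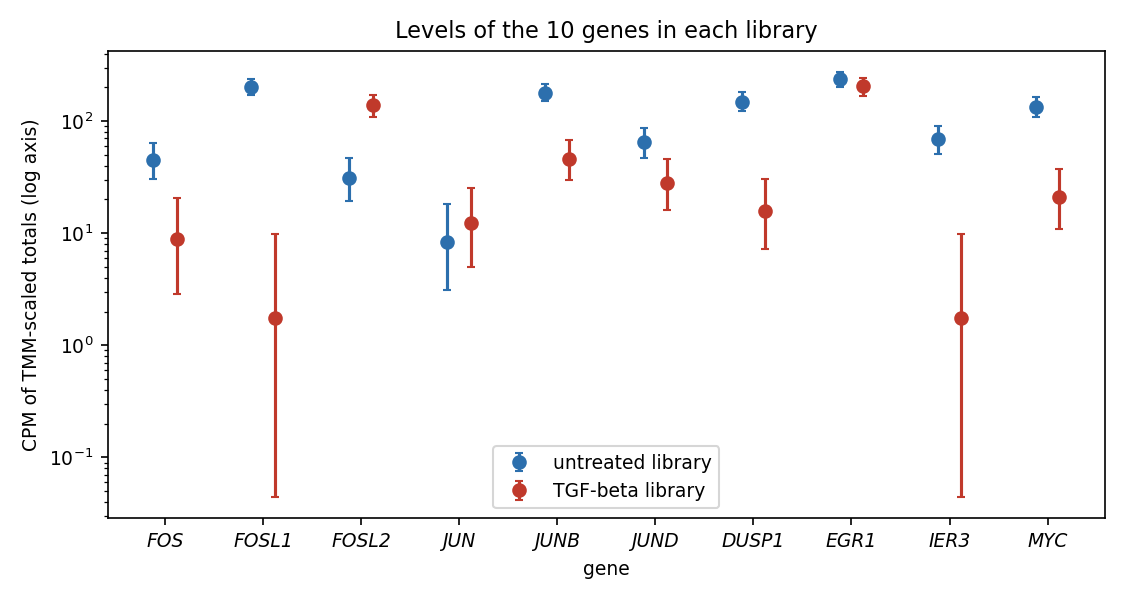
Level of each of the 10 genes in the untreated (blue) and TGF-beta (red) library, in CPM of TMM-scaled totals on a log axis; bars are exact 95% Poisson intervals of the counts. FOSL1 and IER3 stand at 1.77 CPM in the TGF-beta library, which is 1 count, and only FOSL2 has its whole interval above that of the untreated library.

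Among the Fos genes, FOSL1 encodes Fra-1, a Fos protein without the strong activation domain of FOS that is abundant in many carcinoma lines. FOSL1 (ENSG00000175592, hg19 chromosome 11, 65659520 to 65668044, minus strand) stood at 203 CPM in the untreated library (exact 95% Poisson interval 172 to 239) and 1.77 CPM in the TGF-beta library (0.0448 to 9.86). Its log2 ratio was -6.84 with an exact 95% counting interval of -12.16 to -4.34, and 5 of the 15401 genes, FOSL1 included, had a ratio as low or lower. Genes with 0 counts in the TGF-beta library enter that rank at a floor of 3 counts and can therefore stand above it. The interval of FOSL1 overlaps that of IER3, which also had 1 count with TGF-beta.

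FOSL2, which encodes Fra-2, went the other way. FOSL2 (ENSG00000075426, hg19 chromosome 2, 28615315 to 28640179, plus strand) stood at 30.9 CPM in the untreated library (19.3 to 46.7) and 138 CPM in the TGF-beta library (109 to 172), with a log2 ratio of 2.16 (1.46 to 2.92). Of the genes with at least 20 CPM, 7.47% had a ratio as high or higher. The levels of its exons are given further on, since most of its counts lay on 1 exon.

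FOS (ENSG00000170345, hg19 chromosome 14, 75745477 to 75748933, plus strand), the founding gene of the family, had 32 counts without TGF-beta and 5 with it. These are 44.9 and 8.85 CPM, with a log2 ratio of -2.34 (-4.06 to -0.97). FOSB, the remaining Fos gene and not one of the 10, had 53 and 9 counts and a log2 ratio of -2.22 (-3.43 to -1.19). FOS, FOSB and FOSL1 were thus each lower, and FOSL2 alone of the 4 Fos genes was higher.

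Shares within the family do not depend on how the libraries are scaled. Of the 252 Fos family counts in the untreated library, FOSL1 made up 57.5% (exact 95% Clopper-Pearson interval 51.2% to 63.7%), and of the 93 in the TGF-beta library 1.08% (0.0272% to 5.85%). FOSL2 made up 8.73% (5.55% to 12.9%) of the untreated and 83.9% (74.8% to 90.7%) of the TGF-beta counts. The share of FOS was 12.7% (8.85% to 17.5%) and 5.38% (1.77% to 12.1%), intervals that overlap. The FOSL2 to FOSL1 ratio of counts differed between the libraries by 9.01 on the log2 scale (6.28 to 14.34). This contrast and the FOSL2 share rest on exon 1 of FOSL2 and on 1 FOSL1 count with TGF-beta. Outside exon 1 FOSL2 had 7 rounded counts in each library, as described with the exons. Each gene is amplified with its own efficiency, so a share can be compared between libraries but not between genes.

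**Figure D2:**
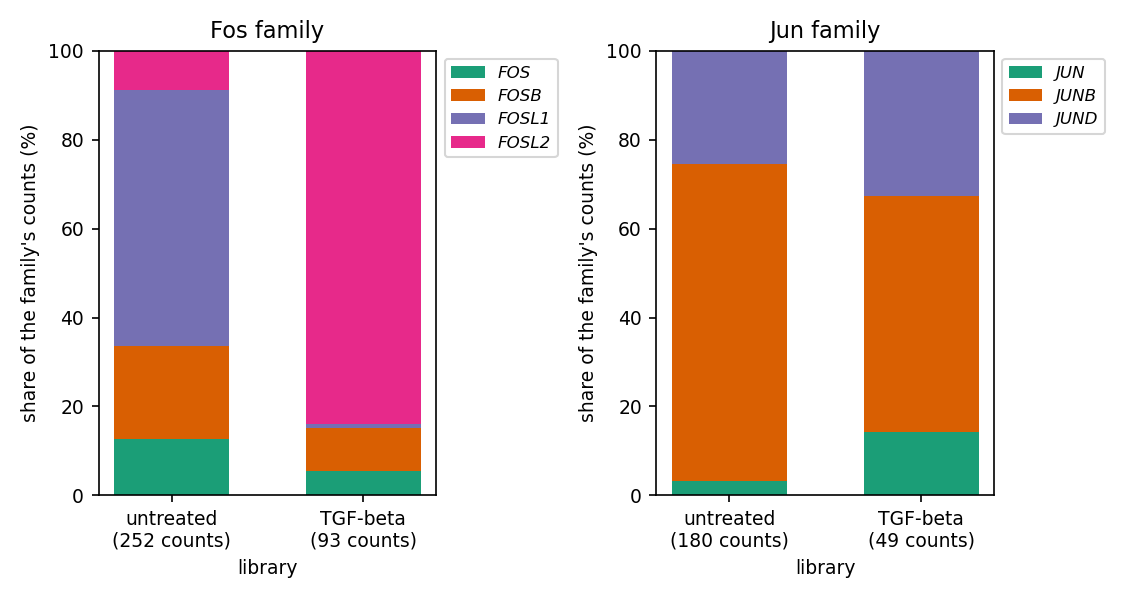
Share of the counts of the 4 Fos genes (left) and the 3 Jun genes (right) in each library, in percent, with the family's total count under each bar. FOSL1 makes up 57.5% of the untreated Fos counts and FOSL2 83.9% of the TGF-beta ones, while the share of JUNB among the Jun counts is 71.1% and 53.1%. Most FOSL2 counts lie on its exon 1 (15.5 untreated, 71.0 with TGF-beta).

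The Jun genes encode the partners that every Fos protein needs. JUNB (ENSG00000171223, hg19 chromosome 19, 12902310 to 12904124, plus strand) stood at 179 CPM in the untreated library (150 to 213) and 46.0 CPM in the TGF-beta library (30.1 to 67.4). Its log2 ratio was -1.96 (-2.63 to -1.35), and the 2 levels' intervals do not overlap. HOOK2, which overlaps JUNB on the opposite strand, had 4 and 5 counts without and with TGF-beta, beside 128 and 26 counts of JUNB, and the strand setting of the counting is unknown here.

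JUND (ENSG00000130522, hg19 chromosome 19, 18390563 to 18392432, minus strand), the Jun gene with the most constant expression in many cell types, had 46 counts without TGF-beta and 16 with it. That is 64.5 and 28.3 CPM and a log2 ratio of -1.19 (-2.11 to -0.34), and 24.5% of all genes tested had a ratio as low or lower. Under the other settings, ribosomal protein scaling aside, the JUND ratio ran from -1.41 to -1.11. JUN (ENSG00000177606, hg19 chromosome 1, 59246465 to 59249785, minus strand), which encodes c-Jun, had only 6 counts without TGF-beta and 7 with it. Its log2 ratio of 0.56 had an interval from -1.24 to 2.41, and a difference in JUN was not detectable at this depth.

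JUN made up 14.3% (5.94% to 27.2%) of the 49 Jun counts with TGF-beta and 3.33% (1.23% to 7.11%) of the 180 without. JUNB made up 53.1% (38.3% to 67.5%) against 71.1% (63.9% to 77.6%). The intervals overlap for both genes, and JUN rests on 7 and 6 counts. The JUN to JUNB ratio of counts differed by 2.52 on the log2 scale (0.58 to 4.47) and the JUND to JUNB ratio by 0.78 (-0.36 to 1.87). This pair and those named elsewhere are from 8 pairs chosen after the values were seen, and the intervals are not adjusted for their number.

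The other 4 genes have different jobs in the early response. EGR1 (ENSG00000120738, hg19 chromosome 5, 137801179 to 137805004, plus strand) encodes a zinc finger transcription factor induced by serum and growth factors. It stood at 236 CPM in the untreated library (201 to 274) and 204 CPM in the TGF-beta library (168 to 244). The log2 ratio was -0.21 (-0.57 to 0.14), so that a change of more than 2-fold lay outside the counting interval of EGR1. It was the best counted of the 10 genes, with 168 and 115 counts.

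DUSP1 (ENSG00000120129, hg19 chromosome 5, 172195093 to 172198198, minus strand) encodes a phosphatase that switches off MAP kinases. It had 149 CPM in the untreated library (122 to 180) and 15.9 in the TGF-beta library (7.28 to 30.2), with a log2 ratio of -3.22 (-4.39 to -2.24). DUSP1 therefore parted from EGR1, with an EGR1 to DUSP1 ratio of counts that differed by 3.01 on the log2 scale (1.95 to 4.23). FOS parted from EGR1 as well, by 2.13 (0.70 to 3.89), although both are serum response genes. Both contrasts rest on exon 1 of EGR1, since outside it EGR1 had a log2 ratio of -4.25 (-9.61 to -1.63), as described with the exons.

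IER3 (ENSG00000137331, hg19 chromosome 6, 30710976 to 30712331, minus strand), an early response gene that modulates survival and ERK signalling, had 49 counts without TGF-beta and 1 with it. The levels were 68.7 CPM (50.8 to 90.8) and 1.77 CPM (0.0448 to 9.86), and the log2 ratio was -5.28 (-10.61 to -2.73). MYC (ENSG00000136997, hg19 chromosome 8, 128747680 to 128753674, plus strand), which encodes a transcription factor of growth and ribosome production, had 95 counts in the untreated library and 12 with TGF-beta, or 133 and 21.2 CPM. Its log2 ratio was -2.65 (-3.65 to -1.78). MYC, DUSP1 and IER3 were thus all lower, and the intervals of MYC and DUSP1 overlap.

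Ordered by ratio the genes ran FOSL1, IER3, DUSP1, MYC, FOS, JUNB, JUND, EGR1, JUN and FOSL2. The counting intervals of all 9 neighbouring pairs overlapped, so the order of neighbours is not resolved. The intervals of the 7 lower genes lay wholly below 0, that of FOSL2 wholly above 0, and those of EGR1 and JUN held 0. These intervals cover counting error alone. The share of all genes with an interval that excludes 0 was not determined, so this tally does not set these genes apart from the rest. IER3, DUSP1, MYC and FOS had intervals that reached the ribosomal protein median of -3.36, while FOSL1 lay wholly below it and JUNB, JUND, EGR1, JUN and FOSL2 wholly above it.

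**Figure D3:**
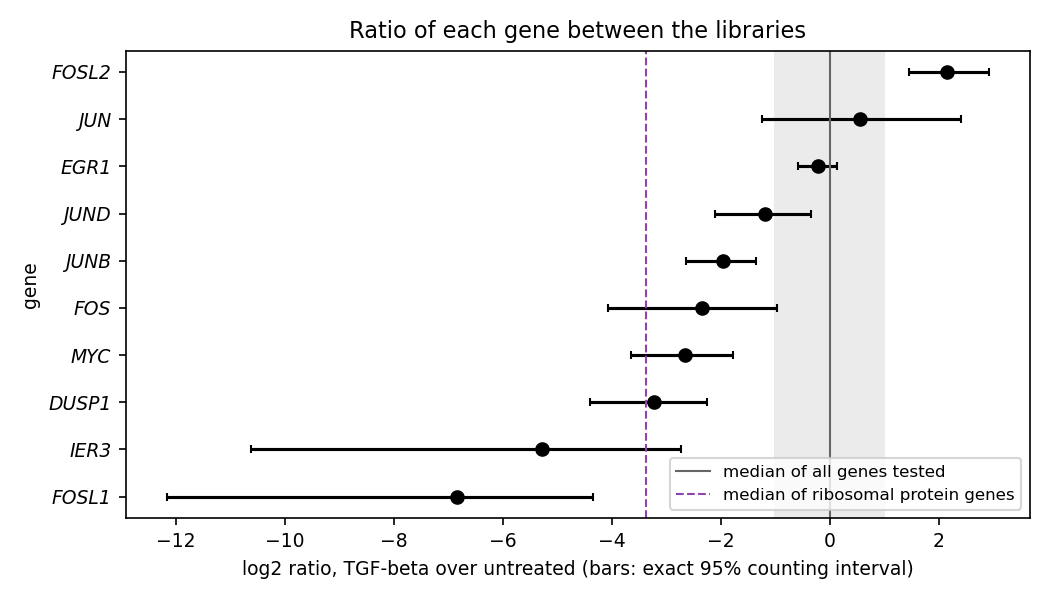
Log2 ratio of TGF-beta over untreated for each gene, in rising order from below, with exact 95% counting intervals; the shaded band marks less than 2-fold, the grey line the median of all genes tested (0.01) and the dashed line the median of the ribosomal protein genes (-3.36). FOSL2 lies above the band at 2.16, EGR1 and JUN lie in it, and the other 7 lie below it.

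The kit amplifies a short segment of each gene, and the deposited exon entries show where the counts of a gene lay. In FOSL2 most counts lay on exon 1 (hg19 chromosome 2, 28615725 to 28616689, plus strand, 5' UTR and start of the coding sequence). Exon 1 held 71.0 expected counts with TGF-beta and 15.5 without. All other FOSL2 exons together held 6.50 and 6.53, which as rounded counts gave a log2 ratio of 0.34 (-1.40 to 2.08). This interval overlaps that of exon 1 (log2 ratio 2.58, 1.76 to 3.49). The few counts elsewhere therefore do not resolve whether the rest of the gene differs from exon 1. Exon 2 held 0 counts with TGF-beta and 3.03 without, and exon 4 held 6.50 and 3.50. The higher FOSL2 value thus rests mostly on the counts of 1 exon.

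EGR1 differed along its length. Exon 1 of EGR1 (hg19 chromosome 5, 137801179 to 137801757, plus strand) held 114 expected counts with TGF-beta and 144 without, a log2 interval of -0.37 to 0.36. Exon 2, which holds the zinc fingers and the 3' UTR, held 1 and 24.0, with a log2 ratio of -4.25 (-9.61 to -1.63). The near equality of EGR1 therefore came from exon 1, and its 2 exons did not give the same ratio.

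FOSL1 and MYC were lower on more than 1 exon. The positions of the amplified segments were not given, so counts on neighbouring exons may come from the same segment. They need not be separate measurements. In MYC, exon 2 held 3.50 counts with TGF-beta and 53.7 without, and the non-coding exon 1 held 8 and 41.7. The MYC log2 ratios were -3.42 (-5.35 to -1.98) on exon 2 and -2.06 (-3.36 to -0.95) outside it. FOSL1 had 111 untreated counts on exon 1 and 33.6 on exon 2, against 1 and 0 with TGF-beta. In DUSP1, exon 3 held 4.71 against 92.9 counts (log2 ratio -3.88, -5.54 to -2.61), whereas the rest of the gene held 3.96 against 13.1, with -1.36 (-3.44 to 0.33), an interval that holds 0. Overlapping exon entries of FOS were merged into 1 stretch that held all of its counts, so no ratio outside it is given. Within that stretch, exon 1 of a FOS transcript held 3.50 counts with TGF-beta and 17.2 without. Its exon 2 held 14.0 without TGF-beta and fewer with it. JUN, JUNB and JUND have 1 exon, and IER3 was counted as 1 stretch, so the same comparison was not possible for them.

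**Figure D4:**
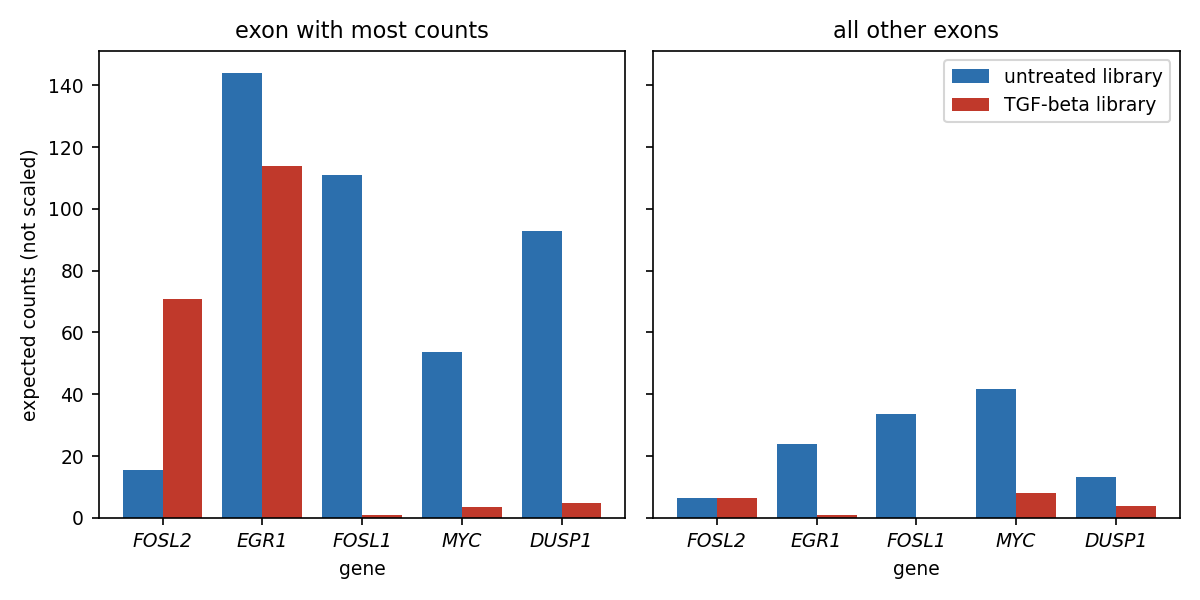
Expected counts (not scaled) on the exon with most counts (left) and on all other exons (right) of 5 genes with counts on several exons, in the untreated (blue) and TGF-beta (red) library. FOSL2 has 71.0 counts in the TGF-beta library against 15.5 on its main exon, and 6.50 against 6.53 on all other exons together. EGR1 is near equal on exon 1 but 1 against 24.0 outside it.

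The 3' UTRs of these genes were searched for the AU-rich motifs ATTTA and TTATTTATT. A representative coding transcript with a 3' UTR was found in GENCODE 29 for 9 of the genes, all but MYC. All 9 UTRs held at least 1 ATTTA, as did 66.0% of 18450 genes. The nonamer TTATTTATT was in the UTRs of FOS, FOSL2 and DUSP1, and in 7.72% of all genes. ATTTA occurred 8.14 times per kilobase in IER3, 6.20 in FOS, 5.95 in DUSP1 and 4 in JUNB, and the median over all genes was 1.48. Near that median lay FOSL1 at 1.5 and JUND at 1.47, both lower genes, while JUN was at 2.33 and EGR1 at 0.810. FOSL2, the higher gene, held 9 ATTTA in a UTR of 4864 bases, 1.85 per kilobase. Proteins that bind such elements were 5 of 8 lower and 0 higher, beside 26.7% and 22.0% of all genes. Among them ZFP36L1, a decay factor, had 4 counts with TGF-beta and 69 without, and ZFP36, its relative tristetraprolin, had 9 and 31. TIAL1, a translational repressor, had 0 and 26 and was at least 6.87-fold lower at the floor of 3 counts. KHSRP, a decay factor, had 8 and 21 (log2 ratio -1.06, -2.44 to 0.18).

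Upstream of these genes, transcripts of the MAP kinase cascade gave 9 of 18 lower and 2 higher past the filter, beside 26.7% and 22.0% of all genes. BRAF, a kinase of the ERK branch, had 2 counts with TGF-beta and 26 without (-3.36, -6.48 to -1.37). MAP2K1, which encodes MEK1, had 23 and 59 (-1.02, -1.79 to -0.31). The higher pair, ARAF and MAP3K1, had 6 counts or fewer and were named after their values were seen. A list of serum response factor, its partners, other ETS factors and CREB1 gave 3 of 8 lower and 1 higher, beside 26.7% and 22.0% of all genes. The higher gene was MKL1, with 5 against 2 counts, named after its value was seen. ETS2 and ETV4, which are not partners in this sense, were among the 8. The median of the list, -0.66, is the value of MKL2 and ETS2 at the floor (0 against 6 counts each), and it depends on the setting. It was 0.07 with a filter of 1 CPM, -1.43 with 5 lower on the log2(CPM + 1) scale, and -1.71 with 5 lower at a floor of 1 count. ELK3, a ternary complex factor, had 9 and 50 counts (-2.14, -3.35 to -1.10), ELK4 had 5 and 17 (-1.43, -3.22 to 0.07), and SRF itself, also named after its value was seen, had 5 and 6.

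Among feedback genes of the pathway 6 of 14 phosphatases and ERK inhibitors were lower and 3 higher, beside 26.7% and 22.0% of all genes, and the median was -0.37. The nuclear ERK phosphatase DUSP5 had 3 counts with TGF-beta and 52 without (-3.78, -6.10 to -2.15). DUSP10, a JNK and p38 phosphatase, had 1 and 19 (-3.91, -9.29 to -1.26), and DUSP4 had 15 and 42 (-1.15, -2.11 to -0.27). DUSP7, a cytoplasmic ERK phosphatase, went the other way with 17 and 6 (1.84, 0.43 to 3.47). Phosphatase genes other than DUSP1 thus lay on both sides.

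Other immediate early genes gave 17 of 30 lower and 6 higher, beside 26.7% and 22.0% of all genes, and their median log2 ratio was -1.09. At 20 CPM 14 were lower and 1 higher of 22, beside 36.0% and 18.5% of all genes. GADD45B, a stress sensor, had 2 counts with TGF-beta and 144 without (-5.83, -8.89 to -3.96). ATF3, a stress-induced partner of Jun proteins, had 9 and 77 (-2.76, -3.94 to -1.76), NFKBIA, the inhibitor of NF-kappaB, had 9 and 58 (-2.35, -3.55 to -1.33), and KLF10, a zinc finger gene known for its induction by TGF-beta, had 2 and 26 (-3.36, -6.48 to -1.37). KLF6, a zinc finger factor named after its value was seen, was close to equal like EGR1, with 142 and 183 counts (-0.03, -0.36 to 0.29). Of the other AP-1 partners past the filter 4 of 10 were lower and 3 higher, and at 20 CPM 3 were lower and 0 higher of 3. Their median was 0.13, which is -1.88 with DESeq2 size factors. MAFK, a small Maf protein, had 3 and 39 counts (-3.36, -5.70 to -1.71).

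Of 17 known AP-1 target genes past the filter 14 were lower by 2-fold or more and 1 higher. Their median log2 ratio was -3.08, with IL8, TIMP1 and SPP1 (0 counts with TGF-beta) at the floor of 3 counts, against 26.7% lower and a median of 0.01 over all genes. IL8, a neutrophil chemokine, had 0 counts with TGF-beta and 193 without and was at least 51.0-fold lower. EZR, a membrane to actin linker, had 5 and 194 (-4.94, -6.58 to -3.69). VEGFA, the vascular growth factor, was the 1 higher gene and was named after its value was seen, with 21 and 9 (1.56, 0.37 to 2.87). The collagenase and stromelysin genes MMP1, MMP3, MMP10 and MMP13 had 0 counts in both libraries. The AP-1 target median lay close to the ribosomal protein median of -3.36 and changes sign when scaled on those genes, at 0.50.

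Of the MYC targets 13 of 18 were lower and 2 higher, beside 26.7% and 22.0% of all genes, and their median was -1.78. HSPD1, a mitochondrial chaperonin, had 1 count with TGF-beta and 107 without (-6.41, -11.72 to -3.90). EIF4A1, a translation initiation helicase, had 3 and 80 (-4.40, -6.71 to -2.80), LDHA, lactate dehydrogenase, had 32 and 485 (-3.59, -4.15 to -3.07), and ODC1, of polyamine synthesis, had 10 and 112 (-3.15, -4.25 to -2.22). EIF4E, the cap-binding factor, was higher with 48 and 19 (1.67, 0.88 to 2.52), and was named after its value was seen. The partners and antagonists of MYC gave 3 of 10 lower and 1 higher (MGA, 11 against 4, likewise named after its value was seen), a share of lower genes close to that of all genes, with a median of 0.29. MLX had 13 and 55 (-1.75, -2.74 to -0.85) and MXD4 had 5 and 17 (-1.43, -3.22 to 0.07), and the MYC antagonist MNT, also named after its value was seen, had 44 and 47.

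**Figure D5:**
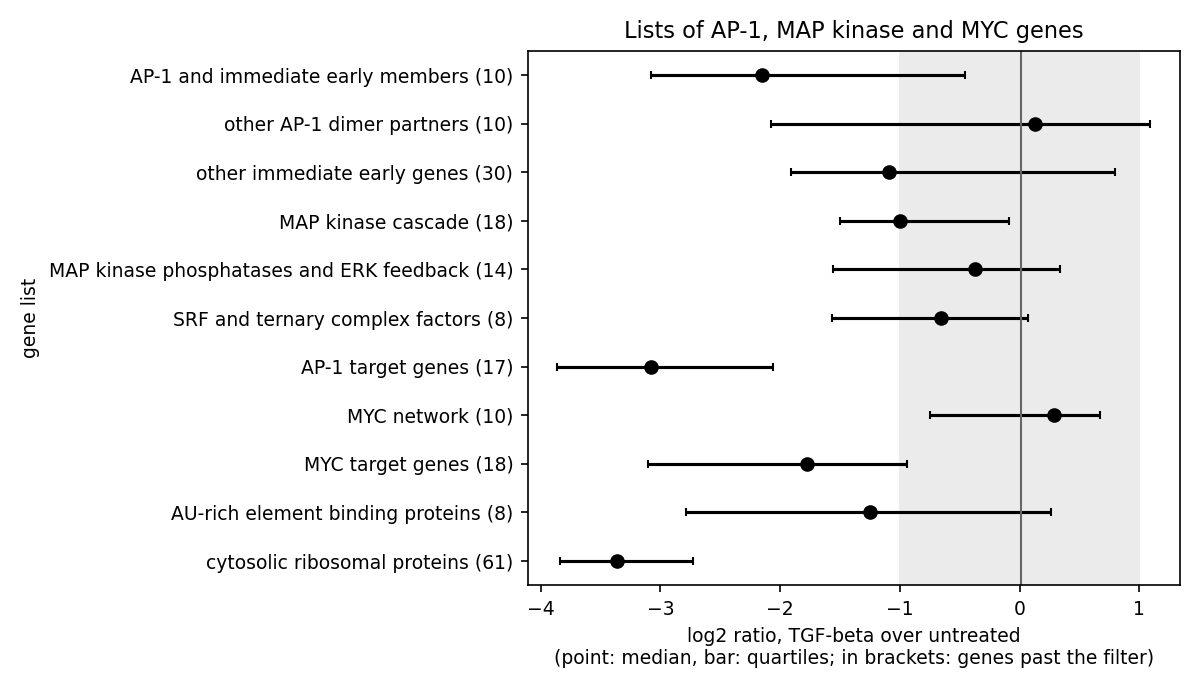
Median (point) and quartiles (bar) of the log2 ratio of TGF-beta over untreated over the genes of each list that passed the filter of 5 CPM, whose number is in brackets; the line marks the median of all genes tested (0.01) and the band less than 2-fold. AP-1 targets (-3.08) lie close to ribosomal protein genes (-3.36), and the MYC network (0.29) and other AP-1 partners (0.13) lie near the line.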

How the data were processed

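AmpliSeq libraries were made from 10 ng of total RNA, per the labels' protocols. The authors deposited expected counts (estimated counts, not normalized) per gene, transcript and exon, and only gene entries were used as counts, with exon entries to place them. The build is hg19 per the submitters' processing notes, which also name DESeq without a role. The aligner, counter and strand setting were not given in the sources used here. Expected counts were rounded (0.5 upwards) and scaled by TMM in edgeR 4.0.16 (R 4.3.3). DESeq2 1.42.0 size factors were an alternative.

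A gene entered with at least 5 CPM in 1 library. Ratios had no pseudocount, a count of 0 was set to 3 counts, and no ratio is given where both counts were 3 or fewer, although such genes stay in tallies and medians. Intervals are exact at 95%. The kit's PCR copies carry no stated molecular identifiers and are not independent molecules, so counting error alone is covered by the intervals and the floor. The ratio and interval code was tested on simulated data.

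The members and the 15 other gene lists were chosen with earlier results of these data known. Besides the members, the text names up to 4 genes a list whose ratios differ most, past 2-fold, among those with 20 CPM, VIM, GAPDH and a few said to be chosen after their values were seen. MYCL1 and PECAM1 were not matched. A few genes that the rule names are not reported here.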

Additional observations from a re-analysis of the deposited data

How the results depend on the processing

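No paired analysis was possible because each condition has 1 library, and for the same reason no replicate could be left out. DESeq2 size factors, total counts, upper quartile scaling, 1 CPM, log2(CPM + 1), unrounded counts, a floor of 1 count, and both filters at 20 CPM (the one on the mean chosen after seeing the data) left 7 members lower and 1 higher. Beside them, 4753 genes were lower and 2463 higher of 14067 with DESeq2 size factors. Of 15401 genes, total counts gave 4636 and 2927, and upper quartile scaling 3887 and 3957. The log2(CPM + 1) scale gave 4653 and 3681 of 15401, and a floor of 1 count 4754 and 3903. Unrounded counts gave 4487 and 3200 of 15026. Log2 ratios ranged from -7.06 to -6.21 for FOSL1 and from 1.94 to 2.24 for FOSL2 without ribosomal protein scaling. A limit of 90% on the share of a gene's exon counts in its main exon left 5 members. Of these 4 were lower and 1 higher, beside 2945 lower and 2040 higher of 9955 genes. EGR1, with a share of 91.2%, fell out. FOS stayed at 58.2%, since for this share only exon entries with counts were merged. Outside the main exon (chosen after seeing the data) FOSL2 was 0.34, EGR1 -4.25, FOSL1 -3.17 (bound) and DUSP1 -1.36, and the cause was not tested.

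Scaling on ribosomal protein genes turned the directions by construction, since it adds 3.54. It gave 2 members lower and 6 higher with a median of 1.39, and DUSP1 0.32, FOS 1.20, JUNB 1.58, JUND 2.35 and MYC 0.89. List medians turned to 2.45 (other immediate early genes), 2.52 (MAP kinase cascade), 0.50 (AP-1 targets), 1.96 (MYC targets), 2.29 (AU-rich element binding proteins), 1.91 (A549 markers) and 0.26 (ribosomal proteins).

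Over all genes, lower and higher genes numbered 111 and 21042 with that scaling, 7430 and 6903 at 1 CPM, 1921 and 986 at 20 CPM, and 1162 and 582 at a mean of 20 CPM, as the filters change how many genes are tested. The limit of 90% on the main exon gave 2945 lower and 2040 higher. The share of higher among all genes past 2-fold was 45.2% with TMM, 34.1% with DESeq2 size factors and 99.5% with ribosomal protein scaling.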
